A study of Mus musculus with 8 samples.

Results

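Replication-dependent histone genes encode the linker histone H1 and the core histones H2A, H2B, H3 and H4 that package newly copied DNA. Most of their mRNAs end in a conserved stem-loop, bound by the protein SLBP, in place of a poly(A) tail, and they are made chiefly in S phase. Some of these genes also give polyadenylated mRNA, which is best known from cells that have left the cell cycle. The genes were taken here as the rows whose symbol starts with Hist1h, Hist2h, Hist3h or Hist4h, the names used by the deposited files. There were 68 such rows among 24060, and the 50 that stood above 0 in at least 4 of the 8 libraries were kept for the comparison.

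The libraries came from the cortex of 4 male and female mice aged about 80 postnatal days, numbered 579, 580, 581 and 595. Every animal was hemizygous for Aldh1l1-creERT2, an inducible Cre driven by the astrocyte gene Aldh1l1, and heterozygous for RiboTag, which puts a hemagglutinin (HA) tag on the ribosomal protein Rpl22 of recombined cells. Each animal gave an HA IP library, made from RNA precipitated with tagged ribosomes, and an input library, made from the cleared lysate of all cortical cells. Both groups share both alleles, and no library without Cre or without the tag was analysed here, so RNA that sticks to the beads was not measured. Libraries were selected for mRNA, and GEO records the molecule as polyadenylated RNA. The values below therefore describe histone RNA that survived that selection, and not all histone mRNA of the tissue.

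The libraries held 33834388 to 53625125 fragments. Aldh1l1 stood at 370 to 433 FPKM (fragments scaled for gene length and library size) in HA IP and at 20.7 to 23.0 FPKM in input. All 10 astrocyte markers rose, all 10 neuron, 10 microglia, 8 oligodendrocyte and 8 oligodendrocyte precursor markers fell, and 7 of 8 endothelial markers fell. The neuron markers still summed to 88.6 to 114 FPKM in HA IP, against 2313 to 2534 FPKM in input. The microglia markers summed to 9.41 to 11.9 FPKM in HA IP, against 142 to 150 FPKM in input. No marker of these lists was at 0 in all HA IP libraries, and the part of other cells in the histone values was not tested. Fewer cells of a type and less RNA per cell cannot be told apart in such samples.

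The promoters of 6 members are shown first: 3 that rose, 2 that fell and 1 whose direction depended on the scaling. No promoter was available for Hist1h2bc, Hist2h2be, Hist2h4 and Hist3h2bb-ps, so these members of the pattern below are not shown. Each stretch ends at the base before the annotated start, in RefSeq on GRCm38.p6, and runs 5′ to 3′ on the gene's own strand. Capitals mark 4 motifs, each searched on both strands: the TATA box as TATAAA, the CCAAT box as CCAAT, the octamer of H2B promoters as ATTTGCAT, and an element known from H1 promoters as AAACACA. Only these exact letters were sought, at any position, so TATA-like stretches of other letters stayed in lower case. No motif overlapped another in these 6 stretches. The stretch of Hist1h2ac spans the whole gap to Hist1h2bc, and that of Hist3h2a the whole gap to Hist3h2bb-ps.
Hist1h1c (chr13:23738557-23738806, plus strand): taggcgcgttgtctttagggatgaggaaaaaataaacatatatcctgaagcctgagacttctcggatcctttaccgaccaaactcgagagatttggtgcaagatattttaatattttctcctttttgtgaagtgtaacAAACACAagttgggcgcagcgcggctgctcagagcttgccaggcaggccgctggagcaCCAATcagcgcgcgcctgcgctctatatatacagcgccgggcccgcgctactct
Hist1h2ac (chr13:23683960-23684198, minus strand): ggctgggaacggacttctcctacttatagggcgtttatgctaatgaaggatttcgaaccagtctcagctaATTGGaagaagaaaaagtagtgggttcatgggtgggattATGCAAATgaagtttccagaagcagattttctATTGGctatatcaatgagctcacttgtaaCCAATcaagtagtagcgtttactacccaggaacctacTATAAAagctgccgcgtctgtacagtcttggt
Hist1h4i (chr13:22041363-22041612, minus strand): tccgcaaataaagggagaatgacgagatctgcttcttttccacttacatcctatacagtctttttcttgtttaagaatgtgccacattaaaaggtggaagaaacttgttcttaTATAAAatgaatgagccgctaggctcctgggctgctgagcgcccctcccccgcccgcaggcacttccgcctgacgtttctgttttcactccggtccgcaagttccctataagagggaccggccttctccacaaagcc
Hist3h2ba (chr11:58948661-58948910, plus strand): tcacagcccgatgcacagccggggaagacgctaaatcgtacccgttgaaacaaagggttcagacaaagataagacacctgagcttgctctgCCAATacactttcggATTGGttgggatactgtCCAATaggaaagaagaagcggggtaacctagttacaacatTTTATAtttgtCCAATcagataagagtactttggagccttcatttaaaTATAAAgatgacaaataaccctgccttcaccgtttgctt
Hist2h2bb (chr3:96269450-96269699, plus strand): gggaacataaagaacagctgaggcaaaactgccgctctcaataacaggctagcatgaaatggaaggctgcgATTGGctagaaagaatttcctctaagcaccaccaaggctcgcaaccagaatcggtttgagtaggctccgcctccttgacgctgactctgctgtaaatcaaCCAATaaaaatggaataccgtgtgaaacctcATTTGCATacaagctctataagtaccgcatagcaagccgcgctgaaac
Hist3h2a (chr11:58954513-58954684, plus strand): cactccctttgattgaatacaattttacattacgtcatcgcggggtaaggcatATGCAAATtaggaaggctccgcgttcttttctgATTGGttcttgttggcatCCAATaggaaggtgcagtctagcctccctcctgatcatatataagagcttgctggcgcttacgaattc
The RefSeq table held a promoter for 61 of the 68 rows. Within 250 bases before the start, CCAAT stood in 50 of these 61 promoters and in 33.8% of all 32851 promoters in the table. TATAAA stood in 29 of 61, against 12.4% of all, and the octamer in 13 of 61, against 1.60% of all. AAACACA stood in 5 of the 6 H1 promoters and in 6.25% of all. Among members with a promoter, CCAAT stood in 18 of the 24 that rose and 3 of the 4 that fell. The 61 windows are not all separate: those of H2A and H2B genes that lie side by side share bases, so 1 site can count for both. A match of letters is a description and not a binding site.

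Replication-dependent histone genes divided between HA IP and input. Of the 50 members tested, 26 were higher in HA IP, 6 were lower and 18 did not pass, where a call is an adjusted p under 0.05 in limma with the animal as a block. Among the 26, Hist1h2af was at 0 in every input and was kept through HA IP alone. Hist1h1t and Hist1h2bf, also among them, were above 0 in 3 HA IP libraries and 1 input. Over all 18140 genes tested 37.8% were higher and 40.7% lower. The median log2 fold change of HA IP over input was 0.85 over the 50 members and -0.09 over all genes tested. With a pseudocount of 0.01 the member median was 1.56 and with 1 it was 0.20, so its size rests on that choice. The median over members lay between 0.52 and 1.39 in the 4 animals. The highest rises were those of an H4 gene, Hist1h4h, and an H2B gene, Hist1h2bc, at about the same size, and the deepest fall was that of another H2B gene, Hist3h2ba.

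Those fold changes are on log2(FPKM + 0.1) after trimmed mean of M-values (TMM) scaling, which raised the log2 ratio of HA IP to input FPKM by 0.78 to 0.90 in the 4 animals. With the pseudocount of 0.1, the fitted log2 fold changes of members moved by 0.19 to 0.84, least for genes of low level. Without that scaling 19 members were higher and 7 lower, against 21.2% and 60.4% of all genes tested, and the medians were 0.42 for members and -0.65 for all genes. The 7 members no longer called higher were Hist3h2a, Hist1h4k, Hist1h2bg, Hist1h2ad, Hist1h2bh, Hist1h4a and Hist1h4n, and Hist1h4d was then called lower. The deposited FPKM of HA IP lay above all inputs, without overlap, for 11 members (19.2% of all genes tested) and below all inputs for 6 (56.3%). Those 11 include Hist1h2af, which was at 0 in every input, so the filter alone fixed that its groups did not overlap. Without the animal block 23 members were higher and 6 lower, against 36.9% and 39.9% of all genes. Leaving out both libraries of animal 579, 580, 581 or 595 gave 21, 26, 26 and 27 members higher and 6, 6, 6 and 7 lower.

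**Figure D1:**
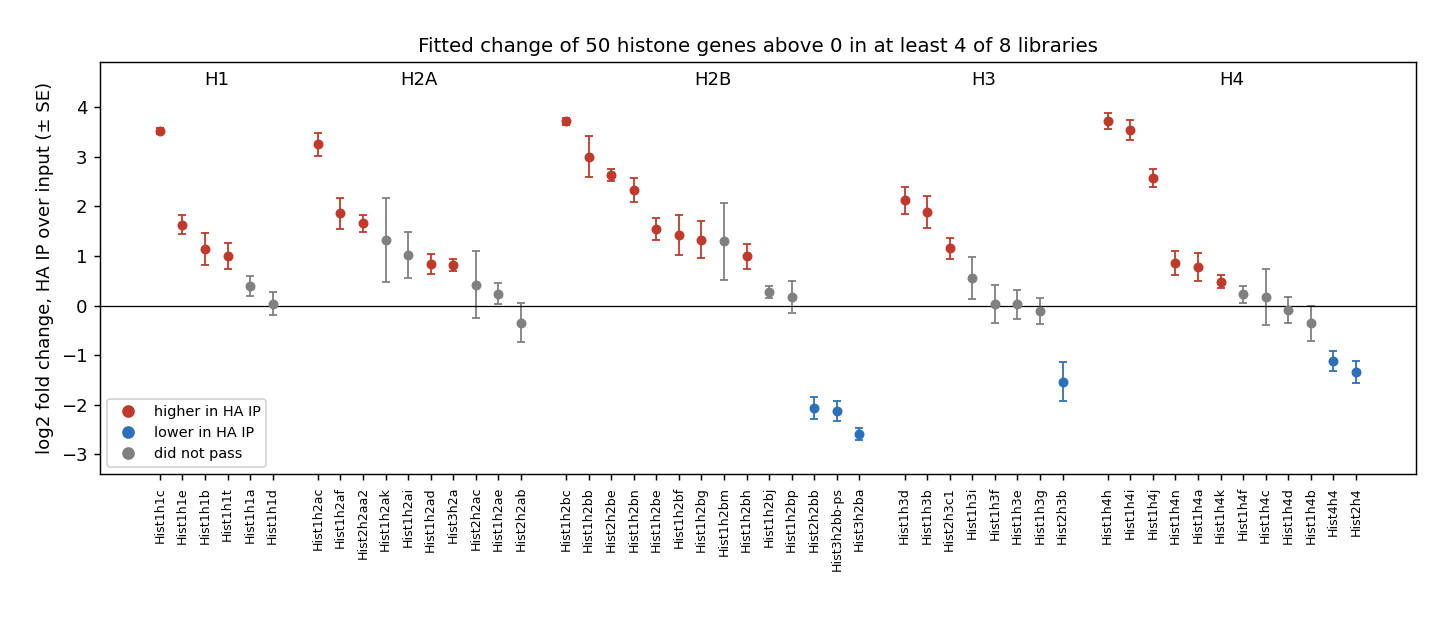
Fitted log2 fold change of HA IP over input (y axis) with SE bars for the 50 kept genes (x axis), grouped by histone family and sorted within it. Red points passed as higher, blue as lower, and grey did not pass. The 6 genes that fell were 3 H2B, 1 H3 and 2 H4 genes, and no H1 or H2A gene fell.

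After TMM scaling all 6 falls lay outside the Hist1 cluster. The cluster on chromosome 13, named Hist1, held 38 of the 50 kept members, of which 22 rose, none fell and 16 did not pass (median log2 fold change 1.004). The cluster on chromosome 3, named Hist2, held 8, of which 3 rose and 3 fell (median 0.04). The Hist3 genes on chromosome 11 were 3, of which 1 rose and 2 fell, and the single Hist4 gene on chromosome 6 fell. On the deposited scale the Hist1 genes had 16 rises and 1 fall, that of Hist1h4d, the Hist3 genes had 0 rises and 2 falls, and the counts of Hist2 and Hist4 were as above. By family, 4 of 6 H1, 5 of 10 H2A, 8 of 14 H2B, 3 of 8 H3 and 6 of 12 H4 genes rose. Beside these counts, 37.8% of all genes tested were higher and 40.7% lower, and 21.2% and 60.4% on the deposited scale. Neither the cluster nor the family counts were tested against those shares. The difference between clusters was not tested.

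Most members had few fragments. The members had 9 to 29359 fragments over all 8 libraries, with a median of 37.0, and 35 of the 50 had under 100. Of the 15 with at least 100 fragments, 13 rose and 2 fell. Of the 35 with fewer, 13 rose, 4 fell and 18 did not pass. The shares of all genes called at these fragment counts were not computed, so these counts have no baseline. Of the 10 members with a mean of at least 1 FPKM, 9 rose and 1 fell, against 49.6% and 37.7% of the genes tested at that level.

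**Figure D2:**
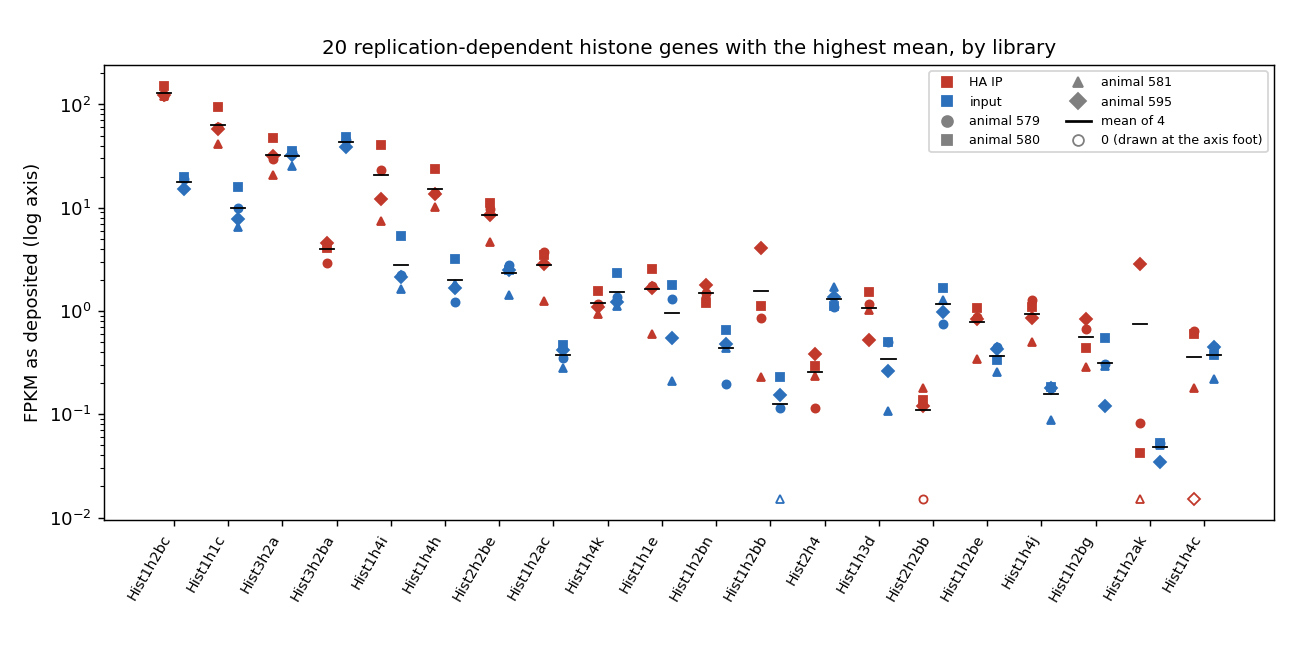
Deposited FPKM (y axis, log scale) of the 20 members with the highest mean (x axis), with HA IP in red and input in blue. Each symbol is 1 library, its shape the animal, and bars are means of 4. Hist3h2ba sits at 2.94 to 4.55 FPKM in HA IP, against 38.5 to 48.1 FPKM in input, while Hist1h2bc sits at 120 to 152 FPKM in HA IP and 15.2 to 19.99 FPKM in input.

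Among linker histones, Hist1h1c (H1.2, H1f2 in RefSeq, chr13:23738807-23739531) carried nearly all of the signal. It stood at 60.1, 94.5, 41.7 and 58.2 FPKM in the HA IP libraries of animals 579, 580, 581 and 595, against 9.93, 15.9, 6.50 and 7.80 FPKM in their inputs. The groups did not overlap, and animal 580 was the highest and 581 the lowest in both. The means were 63.6 ± 22.2 FPKM in HA IP, against 10.04 ± 4.16 FPKM in input (SD, n = 4 each), and the log2 fold change was 3.51 (SE 0.06, adjusted p = 6.5e-08). Hist1h1e (H1.4, H1f4) had 1.74, 2.54, 0.599 and 1.67 FPKM in HA IP and 1.29, 1.77, 0.208 and 0.549 FPKM in input. Those groups overlapped, but HA IP was above input within each animal, and the log2 fold change was 1.63 (SE 0.19, adjusted p = 0.000213). Hist1h1b (H1.5) rose on few fragments, 8, 8, 3 and 1 in HA IP and 1, 0, 3 and 0 in input (log2 fold change 1.14, SE 0.32), a call lost without animal 579. Hist1h1t, the testis linker histone, rose on 3, 6, 0 and 3 fragments in HA IP against 0, 1, 0 and 0 in input. Hist1h1a and Hist1h1d, with 10 fragments each in all, did not pass.

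Among H2A genes, Hist3h2a (H2aw, chr11:58954685-58955192) had the highest level and hardly differed on the deposited scale. It had 29.9, 47.5, 20.9 and 31.9 FPKM in HA IP and 34.6, 35.6, 25.4 and 32.6 FPKM in input. HA IP was above input in 1 of 4 animals on that scale. The log2 fold change was 0.82 (SE 0.13, adjusted p = 0.000929) after TMM scaling and -0.025 (adjusted p = 0.849) without it, so its direction rests on the scaling.

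Hist1h2ac (H2ac6, chr13:23683473-23683959) was much lower in level but strongly shifted. It had 3.69, 3.48, 1.24 and 2.86 FPKM in HA IP, all above the 0.347, 0.465, 0.278 and 0.422 FPKM in input (log2 fold change 3.25, SE 0.23, adjusted p = 1.73e-05). Hist2h2aa2 had 0.276, 0.474, 0.281 and 0.298 FPKM in HA IP and 0.0708, 0.0949, 0.114 and 0.0940 FPKM in input, with no overlap (log2 fold change 1.66, SE 0.17). Its copy Hist2h2aa1 was listed at 0 in all libraries, and the length behind the FPKM of Hist2h2aa2 was 2.0 times its RefSeq span, as it was for the H3 gene Hist2h3c1. These sequences are near-identical, so fragments of such copies cannot be assigned with certainty. Hist1h2af had 4, 6, 1 and 6 fragments in HA IP and 0 in every input, which on the deposited scale is at least 5.43-fold higher if 3 fragments over the 4 inputs are taken as the floor. It entered the comparison through HA IP alone. Hist1h2ad rose by 0.84 (SE 0.20) with 27 fragments in HA IP and 24 in input, and lost its call on the deposited scale and without the block.

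H2B genes held both the highest member and the deepest fall. Hist1h2bc (H2bc4, chr13:23684199-23692480) stood at 121, 152, 120 and 123 FPKM in HA IP, against 19.2, 19.99, 16.0 and 15.2 FPKM in input. Every HA IP library was above every input, and the log2 fold change was 3.71 (SE 0.07, adjusted p = 7.15e-08). Hist3h2ba (H2bu2, chr11:58948911-58949372) went the other way, with 2.94, 4.11, 4.35 and 4.55 FPKM in HA IP against 45.5, 48.1, 41.4 and 38.5 FPKM in input. Again the groups were far apart, and the log2 fold change was -2.59 (SE 0.13, adjusted p = 2.81e-06). It was -3.43 on the deposited scale.

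Hist2h2be (H2bc21), whose RefSeq span of 2667 bases is long for a histone gene, had 9.73, 11.2, 4.64 and 8.59 FPKM in HA IP and 2.80, 2.49, 1.44 and 2.51 FPKM in input. All 4 HA IP libraries were above all inputs (log2 fold change 2.63, SE 0.11, adjusted p = 1.7e-06). Its relative Hist2h2bb (H2bc18) fell in the same cluster, with 0, 0.138, 0.181 and 0.120 FPKM in HA IP and 0.742, 1.66, 1.26 and 0.985 FPKM in input (log2 fold change -2.06, SE 0.21, adjusted p = 0.000123). These rest on 0, 3, 4 and 2 fragments in HA IP and 13, 29, 23 and 26 in input. Hist3h2bb-ps, annotated as a transcribed pseudogene, fell with 1, 1, 0 and 0 fragments in HA IP and 8, 13, 10 and 16 in input (log2 fold change -2.12, SE 0.21).

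The remaining H2B genes that passed all rose. Hist1h2bn had 1.48, 1.21, 1.45 and 1.79 FPKM in HA IP and 0.196, 0.657, 0.441 and 0.477 FPKM in input, with no overlap (log2 fold change 2.33, SE 0.25). Hist1h2bb had 0.851, 1.11, 0.228 and 4.05 FPKM in HA IP and 0.115, 0.231, 0 and 0.153 FPKM in input (log2 fold change 2.996, SE 0.41), with animal 595 far above the others and animal 581 within the range of input. Hist1h2be had 0.884, 1.08, 0.345 and 0.844 FPKM in HA IP and 0.450, 0.338, 0.259 and 0.433 FPKM in input (log2 fold change 1.54, SE 0.22), and animal 581 of HA IP lay within the range of input. Its FPKM was computed on a length of 5426 bases, so its level is not comparable with those of short histone genes. Hist1h2bg, Hist1h2bh and Hist1h2bf rose by 1.33 (SE 0.37), 0.99 (SE 0.25) and 1.42 (SE 0.41), with 42, 21 and 14 fragments in HA IP and 22, 13 and 1 in input. The calls of Hist1h2bg and Hist1h2bh were lost on the deposited scale, and those of Hist1h2bg and Hist1h2bf without animal 579.

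H3 genes were the scarcest family. Hist1h3d (H3c4) had 1.18, 1.52, 1.02 and 0.529 FPKM in HA IP and 0.503, 0.505, 0.108 and 0.260 FPKM in input (log2 fold change 2.12, SE 0.27, adjusted p = 0.000318). All HA IP libraries lay above all inputs, although the lowest HA IP value, that of animal 595, was close to the highest input. Hist2h3b (H3c13) fell, with 1, 1, 5 and 0 fragments in HA IP and 11, 9, 8 and 19 in input (log2 fold change -1.53, SE 0.39, adjusted p = 0.00955). Hist1h3b rose with 13, 6, 1 and 3 fragments in HA IP and 1, 0, 0 and 0 in input (log2 fold change 1.89, SE 0.32). Hist2h3c1 rose with 11, 5, 6 and 5 fragments in HA IP and 0, 0, 0 and 7 in input (log2 fold change 1.16, SE 0.22). The other 4 kept H3 genes did not pass.

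H4 genes encode proteins that are the same or nearly so, but their mRNAs differed widely here. Hist1h4h (H4c8, chr13:23531044-23531478) had 13.8, 23.7, 10.2 and 13.7 FPKM in HA IP and 1.23, 3.19, 1.81 and 1.68 FPKM in input (log2 fold change 3.72, SE 0.16, adjusted p = 1.43e-06). Hist1h4i (H4c9, chr13:22040960-22041362) had 23.4, 40.2, 7.48 and 12.1 FPKM in HA IP and 2.24, 5.27, 1.62 and 2.13 FPKM in input (log2 fold change 3.53, SE 0.20, adjusted p = 6.21e-06). For both, animal 580 was the highest in either group and no HA IP library overlapped with input. Hist1h4j had 1.27, 1.09, 0.501 and 0.855 FPKM in HA IP and 0.181, 0.182, 0.0870 and 0.1799 FPKM in input (log2 fold change 2.57, SE 0.18), on 49 and 8 fragments.

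Its neighbour Hist1h4k (H4c12) was instead close to even. It had 1.18, 1.55, 0.928 and 1.09 FPKM in HA IP and 1.38, 2.35, 1.13 and 1.23 FPKM in input, below input in 4 of 4 animals as deposited. After TMM scaling its log2 fold change was 0.48 (SE 0.13, adjusted p = 0.0109), on the deposited scale -0.30 (adjusted p = 0.066), and without the block it did not pass (adjusted p = 0.1001). Within a library, where no scaling enters, the ratio of Hist1h4i to Hist1h4k FPKM was 19.8, 26.0, 8.06 and 11.2 in HA IP and 1.62, 2.24, 1.43 and 1.73 in input. The ratio was thus higher in every HA IP library than in any input.

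Hist2h4 (H4c14) fell, with 0.114, 0.294, 0.232 and 0.386 FPKM in HA IP and 1.10, 1.11, 1.70 and 1.36 FPKM in input (log2 fold change -1.34, SE 0.22, adjusted p = 0.00135). Hist4h4 (H4f16) fell on 1, 1, 0 and 0 fragments in HA IP and 3, 5, 3 and 7 in input (log2 fold change -1.12, SE 0.20). Both were below all inputs in every HA IP library. Hist1h4n rose by 0.86 (SE 0.24), with 3, 7, 1 and 3 fragments in HA IP and 1, 1, 1 and 2 in input. The length behind the FPKM of Hist1h4n was 1.80 times its RefSeq span, and its call was lost on the deposited scale (adjusted p = 0.053 in limma). Hist1h4a had a log2 fold change of 0.78 (SE 0.29, adjusted p = 0.0426), on 12 fragments in HA IP and 7 in input. That call was lost under 7 of 10 alternatives. Hist1h4c had 0.644, 0.603, 0.179 and 0 FPKM in HA IP and 0.451, 0.378, 0.217 and 0.449 FPKM in input and did not pass (log2 fold change 0.17, SE 0.56). Without animal 595 it passed with 0.94 (adjusted p = 0.0155).

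The make-up of histone FPKM differed between the groups in each animal. All 68 rows together summed to 279, 393, 218 and 281 FPKM in HA IP and 128, 146, 103 and 111 FPKM in input. Hist1h2bc took 45.2 ± 6.84% of that sum in HA IP and 14.5 ± 0.931% in input, and Hist1h1c took 21.4 ± 2.05% and 7.996 ± 2.02% (SD, n = 4 each). Hist3h2ba took 1.43 ± 0.462% in HA IP and 35.8 ± 3.07% in input, and Hist3h2a took 10.9 ± 1.05% and 26.3 ± 2.31%. The Hist1 cluster held 84.3 ± 1.13% of the sum in HA IP and 32.2 ± 3.81% in input, and the Hist3 genes 12.4 ± 0.794% and 62.7 ± 3.33%. These shares are free of any scaling between libraries, and for the 4 genes and both clusters the groups did not overlap. They do depend on the lengths behind the FPKM.

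The share of the H2B family was by contrast close in both groups, 51.5 ± 6.82% in HA IP and 55.0 ± 3.56% in input. Its main member differed: Hist1h2bc in HA IP and Hist3h2ba in input. H3 genes made up 0.718 ± 0.127% in HA IP and 1.15 ± 0.265% in input, so the 4 core histones were far from evenly represented.

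**Figure D3:**
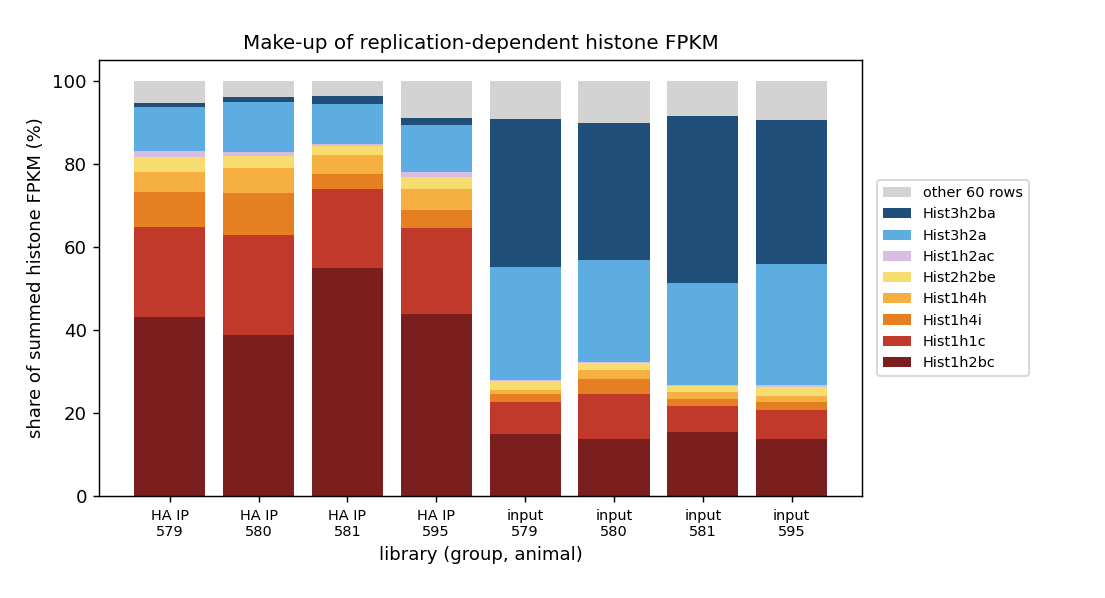
Share of the summed FPKM of all 68 histone rows (y axis, percent) taken by the 8 members with the highest mean and by the other 60 rows, in each library (x axis). Hist3h2a and Hist3h2ba together take 11.6% to 13.1% in HA IP and 57.3% to 64.7% in input, while Hist1h2bc and Hist1h1c together take 62.8% to 74.0% and 20.7% to 24.6%.

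Neighbouring genes did not always share a direction. On chromosome 11, Hist3h2ba starts 5.77 kb before Hist3h2a, with Hist3h2bb-ps between them, 172 bases from Hist3h2a. The ratio of Hist3h2ba to Hist3h2a FPKM was 0.0985, 0.0866, 0.208 and 0.143 in HA IP and 1.32, 1.35, 1.63 and 1.18 in input, so the order of these 2 genes was reversed between the groups in all 4 animals. On chromosome 3, Hist2h4, Hist2h3b and Hist2h2bb lie within 7.26 kb and all 3 fell, while Hist2h2be, 39.2 kb away, rose. Hist2h2aa2 and Hist2h3c1, which lie between Hist2h2be and Hist2h4, also rose. Many H2A and H2B genes lie side by side, with gaps of 163 to 280 bases in the 12 such pairs here, and in 6 of them both genes were tested. Both rose in the pairs Hist1h2ac with Hist1h2bc and Hist1h2ad with Hist1h2bf. Hist1h2ad, however, lost its call on the deposited scale (adjusted p = 0.336 in limma) and without the block (adjusted p = 0.133). In the pair Hist3h2a with Hist3h2bb-ps the calls were opposite after TMM scaling, but on the deposited scale Hist3h2a had -0.025 and did not pass while Hist3h2bb-ps had -2.56. In Hist2h2ac with Hist2h2be, Hist1h2ak with Hist1h2bn and Hist1h2ae with Hist1h2bg the H2B gene alone passed. The gap of the first pair, printed above, holds CCAAT on both strands, the octamer and TATAAA, and that of Hist3h2a holds CCAAT on both strands and the octamer.

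A few members stood high in the HA IP library of animal 595 alone. Of 39 members with at least 10 fragments in HA IP, 8 had over 50% of them in that library, which held 20.05% of all HA IP fragments, and the median share was 21.4%. The same count over all genes, or for the other HA IP libraries, was not made. Hist1h3b, for instance, had 13 of its 23 HA IP fragments in animal 579. Hist1h2ak had 2, 1, 0 and 52 fragments in the HA IP libraries of animals 579, 580, 581 and 595 and 1 in each input (log2 fold change 1.31, SE 0.85, adjusted p = 0.195). Hist1h2bm had 1, 3, 0 and 30 fragments in HA IP and 1, 3, 0 and 0 in input. Hist1h2bb had 19, 24, 5 and 67 in HA IP and 2, 4, 0 and 4 in input. Hist1h2an and Hist1h3c, which are above 0 in too few libraries to be kept and were chosen for mention after their values were seen, had all of their 31 and 12 HA IP fragments in animal 595. Other members did not share this: Hist1h2bc and Hist1h1c of animal 595 were within the range of the other HA IP libraries, and Hist1h4c was listed at 0 there. Rn45s, the ribosomal RNA precursor, was also highest in that library, at 1819, 1624, 2227 and 4379 FPKM in HA IP and 913, 1858, 1526 and 608 FPKM in input. The part of Rn45s in these values was not tested. It was chosen for mention after its values were seen, and other genes, such as Atrx and Ccna2, were also highest there among the HA IP libraries. Hist1h2bb stayed higher without animal 595 (log2 fold change 2.45, SE 0.21, adjusted p = 0.000211).

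**Figure D4:**
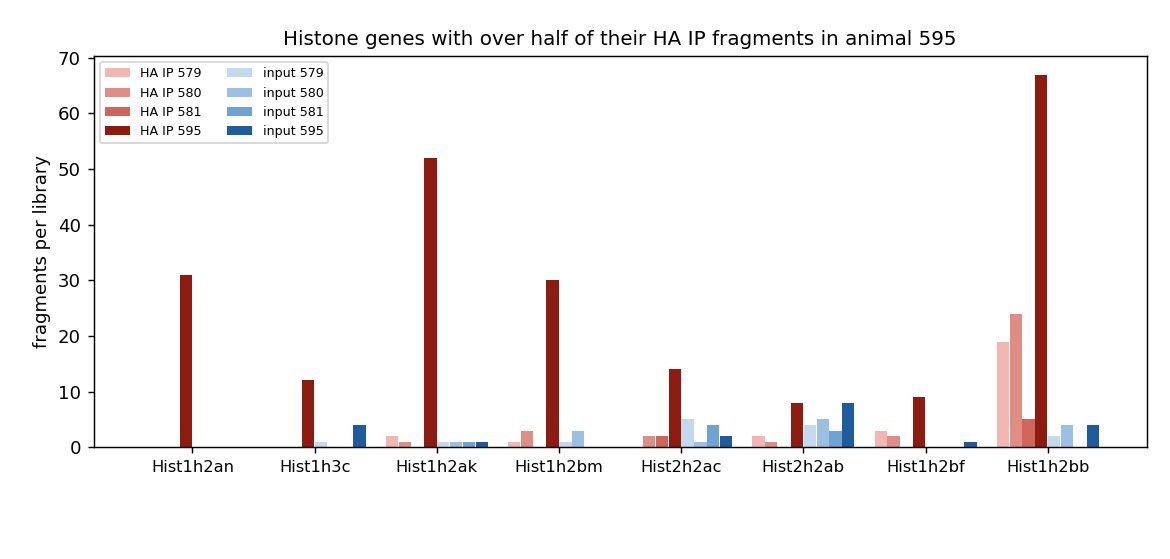
Fragments per library (y axis) of the 8 genes with over 50% of their HA IP fragments in animal 595 (x axis), HA IP in shades of red and input in shades of blue. Hist1h2bb, Hist1h2ak, Hist1h2an and Hist1h2bm reach 67, 52, 31 and 30 fragments in that library and at most 24 in any other.

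Histone variant genes outside the replication-dependent clusters served as a point of comparison. Most of them give polyadenylated mRNA not tied to S phase, although H2afx also gives a stem-loop mRNA and Cenpa is expressed mainly in G2. Among the 11 variants tested there were 6 rises and 4 falls (median log2 fold change 1.14), with 6 and 5 on the deposited scale. Of all genes tested, 37.8% were higher and 40.7% lower, and 21.2% and 60.4% on the deposited scale. The variant counts were not tested against those shares. Without the animal block, without animal 580 or without animal 595, 2 variants fell. The H3.3 genes H3f3a and H3f3b stood at 86.2 ± 6.17 and 97.7 ± 20.5 FPKM in HA IP and at 69.7 ± 11.1 and 78.3 ± 4.35 FPKM in input (log2 fold changes 1.16 and 1.14). The H2A.Z genes parted, with H2afv higher by 2.11 (SE 0.07) and H2afz at -0.70 (SE 0.07). The other rises were those of the macroH2A gene H2afy (1.68), the linker histone gene H1f0 (1.53) and H2afj (1.24). Cenpa, the centromeric H3 variant, changed by -2.13 (SE 0.16), H1fx by -0.22 (SE 0.07) and H2afy2 by -0.18 (SE 0.06). H2afx had -0.19 (SE 0.07) and did not pass, but on the deposited scale it was called lower, at -1.03 (adjusted p = 1.44e-05 in limma). H3f3b alone thus exceeded the replication-dependent H3 genes by far in both groups, since Hist1h3d, the highest of these, averaged 1.06 FPKM in HA IP, against 0.344 FPKM in input.

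Genes that process or degrade histone mRNA were mixed. There were 11 rises and 7 falls among 23 tested (median 0.33), and 4 and 13 on the deposited scale. The shares over all genes tested were 37.8% higher and 40.7% lower, and 21.2% and 60.4% on the deposited scale, and these also apply to the chaperone and S-phase lists. The counts of the 3 lists are given as descriptions and were not tested against those shares. Slbp, the stem-loop binding protein gene, had 2.96 ± 0.657 FPKM in HA IP, against 3.97 ± 0.393 FPKM in input and did not pass (log2 fold change 0.39, adjusted p = 0.0508). On the deposited scale Slbp was called lower, at -0.43 (adjusted p = 0.0402 in limma), so its direction rests on the scaling. Lsm11, a subunit of the U7 particle that directs 3′ end cleavage, fell (-2.31, SE 0.10), whereas its partner Lsm10 rose (1.07, SE 0.13), a call lost on the deposited scale. Cpsf3, the endonuclease that cuts the histone pre-mRNA, rose by 1.90 (SE 0.06), and Zcchc11, a uridylyltransferase, changed by -1.88 (SE 0.15). Npat, a coactivator of histone transcription, changed by -0.74 (SE 0.11).

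Of 18 histone chaperone genes 8 rose, 7 fell and 3 did not pass (median 0.39), and 4 rose and 8 fell on the deposited scale. Nap1l2 and Nap1l3 changed by -4.39 (SE 0.07) and -2.62 (SE 0.10), against rises of Nap1l4 by 1.81 (SE 0.08) and of Ssrp1, a subunit of the chromatin factor FACT, by 1.80 (SE 0.07). Of 24 S-phase and proliferation genes 12 rose, 4 fell and 8 did not pass (median 0.49), with 10 rises and 10 falls on the deposited scale. Mki67, a marker of cycling cells, had 0.0388 ± 0.02001 FPKM in HA IP, against 0.145 ± 0.0389 FPKM in input (log2 fold change -0.46), and Top2a had 0.367 ± 0.119 and 0.199 ± 0.0684 FPKM (1.24). The replication helicase genes Mcm3 and Mcm4 rose by 2.69 (SE 0.13) and 2.27 (SE 0.09). Of the other subunits, Mcm2 had 0.97 and Mcm7 0.73, calls lost on the deposited scale, and Mcm5 fell (-0.67, SE 0.15). Mcm6 had -0.31 and did not pass, but on the deposited scale it was called lower, at -1.09 (adjusted p = 0.00937 in limma). The highest level in the list was that of Pcna, the sliding clamp, at 42.0 ± 4.48 FPKM in HA IP, against 25.5 ± 1.04 FPKM in input (1.55, SE 0.07). The ribonucleotide reductase genes Rrm1 and Rrm2 rose by 2.02 (SE 0.11) and 1.86 (SE 0.13), while the cyclin genes Ccne1 and Ccne2 changed by -1.51 (SE 0.15) and -1.06 (SE 0.19).

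**Figure D5:**
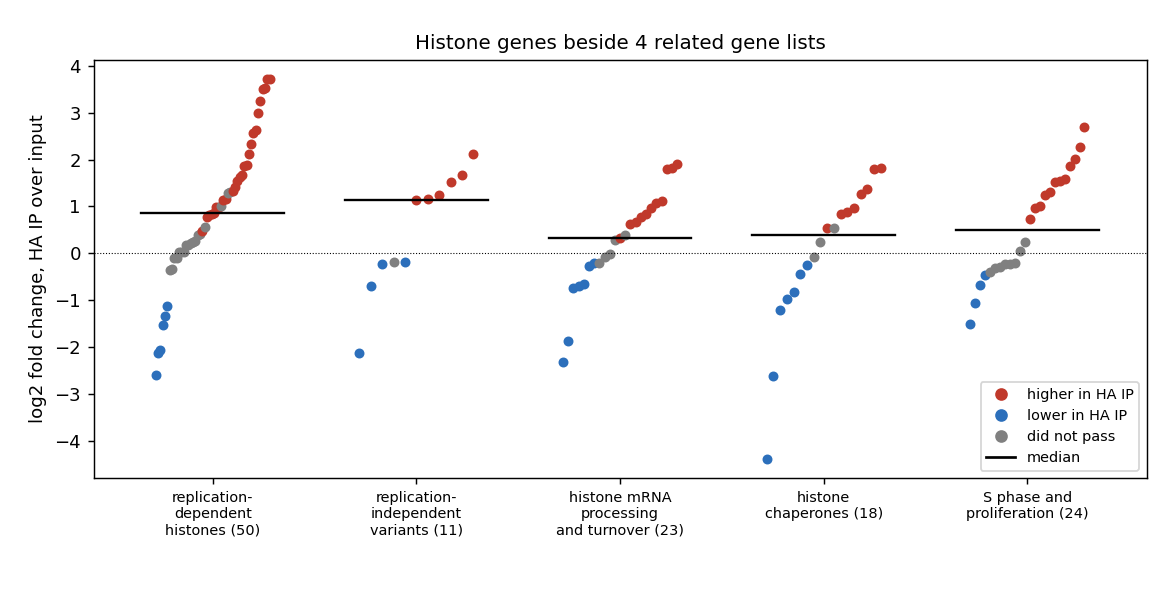
Log2 fold change of HA IP over input (y axis) for the 50 kept replication-dependent histone genes and 4 related lists (x axis, number of genes in brackets). Points are genes, red higher, blue lower, grey not passed, and bars are medians, 0.85 for replication-dependent genes and 0.33 to 1.14 for the other lists at a pseudocount of 0.1. With a pseudocount of 0.01 or 1 the replication-dependent median is 1.56 or 0.20 and that of the variants 1.14 or 1.13.

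The remaining rows had little signal. The 16 kept members that neither passed nor were among the 20 highest, some of them mentioned above, had 9 to 38 fragments in all and did not pass after TMM scaling, with log2 fold changes of -0.36 to 1.29. Of the 18 rows not kept, 12 were above 0 in 1 to 3 libraries and 6 were listed at 0 throughout. At the edge of the rule, the 5 members above 0 in exactly 4 libraries had 10 to 17 fragments in all, and the 4 rows above 0 in 3 libraries had 3 to 17.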

How the data were processed

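The deposited values are read as FPKM per gene: the files name no unit, but each value is a whole number of fragments (tolerance 1e-05) divided by a gene length and a library total. Per the submitters' processing notes, the authors used bcl2fastq 2.17, STAR and HTSeq with mm10. The strand setting and the handling of fragments that fit several genes were not stated in any label, so near-identical histone copies may share or lose fragments. Per the labels' protocols, HA samples were depleted of DNA, and 100 ng of IP or input RNA entered a stranded paired-end kit with mRNA enrichment.

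From these values, FPKM were divided by TMM factors (trims 0.3 and 0.05), transformed as log2(FPKM + 0.1), and fitted in limma 3.58.1 (R 4.3.3) with the animal as a block. All 18140 genes above 0 in at least 4 of 8 libraries entered, with Benjamini-Hochberg adjustment and a threshold of 0.05. The fit and the recovery of fragments were tested on simulated data. Deviations from group means correlated across genes at 0.150 to 0.318 for HA IP and input of the same animal and at -0.200 to 0.0607 for other pairs, so the animal numbers pair the libraries. The p-values rest on how far the difference of HA IP and input within an animal varied between the 4 animals. That variance was moderated in limma toward a trend over all genes tested. Members named are the 20 with the highest mean and any other that passed. Variants are all named, and from the other lists at most 8 called genes by fold change. Slbp, Npat, Mki67, Top2a, Ccne2, Mcm2, Mcm5, Mcm6, Mcm7, Rn45s, Atrx and Ccna2 were added after their values were seen. Members and lists were chosen with earlier results of these data known. Coordinates and promoters are from RefSeq on GRCm38.p6, matched by symbol or older symbol for 67 of 68 members. Alternatives were 11: the pseudocount, the scaling, the filter on low values, the block and leaving out each animal.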

Additional observations from a re-analysis of the deposited data

Results flagged for a closer look

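In groups of 4 libraries, a value stands out here when its gap to the nearest other value exceeds Dixon's critical share of the group's range. Chance alone marks about 1 in 20 groups of continuous values, and 12 of the 68 groups of named members were marked. These 12 cannot be set against that rate, because many groups hold few fragments. Hist1h3b, Hist1h2bf, Hist2h3c1 and Hist1h1t were at 0 in the other inputs, and Hist1h2ak had 1 fragment in every input. In HA IP, Hist1h2bc of animal 580 had 152.0 FPKM, against 120 to 123 FPKM in the other libraries. Hist1h2ak of animal 595 had 2.87 FPKM in HA IP and at most 0.0819 FPKM in the others. Hist2h2aa2 of animal 580 had 0.474 FPKM in HA IP, against 0.276 to 0.298 FPKM.

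In input, Hist1h4i of animal 580 had 5.27 FPKM, with 1.62 to 2.24 FPKM in the others. The remaining marks in input rest on few fragments. Animal 581 was lowest for Hist1h4j, at 0.0870 FPKM, and for Hist1h4a, at 0 FPKM. Animal 595 was lowest for Hist1h2ak, at 0.0349 FPKM, and highest for Hist1h2bf, at 0.0434 FPKM, Hist1h4n, at 0.0511 FPKM, and Hist2h3c1, at 0.0984 FPKM. Animal 579 was highest for Hist1h3b, at 0.0611 FPKM, and animal 580 for Hist1h1t, at 0.0385 FPKM. These values carry no test beyond the comparison of gaps.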

How the results depend on the processing

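On the deposited scale without TMM scaling, 3840 genes were higher, the median over members was 0.42, processing genes had 4 rises and 13 falls, 4 chaperone genes rose and 10 S-phase genes fell. Hist3h2a then had -0.025, Hist1h4k -0.30 and Hist1h4c -0.41. With a mean of at least 1 FPKM required, 4632 genes fell, 9 members rose and 1 fell with a median of 2.94, and 1 S-phase gene fell. The median was 1.56 with a pseudocount of 0.01 and 0.20 with 1, and Hist1h4c had -0.43 with 0.01. Without the replicate block 2 variant genes fell in place of 4, and members had 23 rises and 6 falls. Hist1h4k, Hist1h2ad and Hist1h4a then lost their calls. Leaving out each animal gave 2 to 4 variant genes lower, with 2 without animal 580 or 595, and -0.20 to 0.94 for Hist1h4c. The cause of these shifts was not tested. For Hist1h2bc, Hist1h1c, Hist3h2ba, Hist1h4i and Hist1h4h, direction and call held under every alternative run. Depth limits the 35 members with under 100 fragments, whose fold changes depend on the pseudocount.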
